A study of Mus musculus with 20 samples.

Results

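This account follows 9 genes of the interferon and RNA-sensing system in SIMS cells, an established mouse salivary gland line, when the RNA-decay factor Zcchc8 is lost. The 9 were listed by symbol and matched to the gene table through GENCODE release M21, out of 55471 gene identifiers. They are Ifit1, Ifit2, Ifit3, Isg15 and Rsad2, which are classic interferon-stimulated effectors, Irf7, a transcription factor of the interferon response, and Ddx58 (RIG-I), Ifih1 (MDA5) and Eif2ak2 (PKR), which bind double-stranded or otherwise foreign RNA. Ifit2 was already known from the comparison of Zcchc8 KO with wild type, so its values there, and those of the other 8 genes in the same comparison, are given as a description without a p-value. Where the text says that such a value was called or not, this belongs to the description and is no support. The question behind the list was whether the build-up of undegraded RNA in these cells goes with an interferon response.

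Total RNA was sequenced from 20 libraries in 5 groups of 4. The groups were unedited wild-type SIMS cells, cells with a Cas9 knockout (KO) of Btbd7, which served as the negative control, and 3 Cas9 clones with Zcchc8 knocked out, called clones 1, 2 and 3. All were grown in DMEM with 10% fetal bovine serum, and the labels name no interferon or virus treatment. Each Zcchc8 clone is 1 edited line, the labels do not say whether the Btbd7 KO cells are 1 clone, and nothing states that the 4 libraries of a group came from separate cultures, so p-values measure the spread between these libraries only.

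As background, ZCCHC8 is a subunit of the nuclear exosome targeting complex, which hands short-lived nuclear transcripts such as promoter upstream transcripts (PROMPTs) to the RNA exosome. In epithelial cells, RIG-I and MDA5 recognise viral or misplaced RNA and signal through the adaptor MAVS to produce interferons, which act through JAK kinases and a complex of transcription factors that holds STAT2 and IRF9. That complex binds the interferon-stimulated response element (ISRE) in promoters, and the effector genes it switches on include the Ifit family, Isg15 and Rsad2. PKR is made at a basal level and halts translation once it binds double-stranded RNA.

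The promoters of the genes carried this element to different degrees, and the stretches below show those of the 5 effectors and of Irf7, with and without it. Sequences are from RefSeq (GRCm38.p6), run 5′ to 3′ on the gene's strand, and lie upstream of the annotated start. Capitals mark matches on either strand to the ISRE letters (GAAA, any 2 bases, then GAAA), and overlapping matches are joined.
Ifit1 (chr19:34640740-34640858, plus strand): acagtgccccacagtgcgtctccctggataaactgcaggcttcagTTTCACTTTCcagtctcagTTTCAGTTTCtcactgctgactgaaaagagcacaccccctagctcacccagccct
Ifit3 (chr19:34583328-34583461, plus strand): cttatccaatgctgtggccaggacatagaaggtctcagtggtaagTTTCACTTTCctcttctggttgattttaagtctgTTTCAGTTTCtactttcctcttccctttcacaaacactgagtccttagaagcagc
Isg15 (chr4:156200830-156200941, minus strand): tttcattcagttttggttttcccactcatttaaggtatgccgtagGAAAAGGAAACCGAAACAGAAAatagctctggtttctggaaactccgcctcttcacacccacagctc
Rsad2 (chr12:26456518-26456617, minus strand): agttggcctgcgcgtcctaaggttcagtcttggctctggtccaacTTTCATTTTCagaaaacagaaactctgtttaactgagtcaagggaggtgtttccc
Ifit2 (chr19:34550594-34550693, plus strand): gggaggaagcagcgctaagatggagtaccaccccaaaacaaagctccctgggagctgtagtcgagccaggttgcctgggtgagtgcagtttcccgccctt
Irf7 (chr7:141266425-141266524, minus strand): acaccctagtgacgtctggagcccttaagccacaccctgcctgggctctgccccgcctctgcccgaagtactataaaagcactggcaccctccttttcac

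All 9 genes had a RefSeq window, which runs from 250 bases before to 50 bases after the start. The ISRE letters were found in the windows of 7 of the 9, against 1079 of 27025 genes (3.99%) and 1131 of all 32851 windows (3.44%). Ifit1 and Ifit3 held 2 matches each upstream of the start, Isg15 held 3 overlapping ones and Rsad2 held 1, while the single matches of Ddx58, Ifih1 and Eif2ak2 lay just after the start. The 2 windows of Ifit2 and the window of Irf7 held none, which says only that these letters are not in those windows. Among the genes near zero described below, 4 thus held the letters and Irf7 did not. The gamma-activated letters TTCNNNGAA, searched on both strands, were found in 2 of the 9 genes, Ifit2 and Eif2ak2, against 9.55% of genes.

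Before the results, 3 facts about the libraries bear on them. The libraries held 6833258 to 17771804 counts in genes, and those of clone 1 were the shallowest, at 6833258 to 7683444, against 13876944 to 17771804 in wild type. Wild-type replicate 1 stood apart, with 14245 genes detected against 17442 to 20889 in the other 19 libraries, and is named below where a value rests on it. Btbd7 RNA was at 99.2 ± 3.23 CPM (SD, n = 4) in Btbd7 KO and 202 ± 7.64 (SD, n = 4) in wild type, while Zcchc8 RNA was at 65.1 ± 2.92 CPM in wild type and at 60.3 ± 4.28, 23.3 ± 1.35 and 54.6 ± 4.84 CPM in clones 1, 2 and 3 (SD over 4 libraries each). The RNA level of the edited gene thus sets clone 2 far below wild type but not clone 1, and a Cas9 edit need not lower the RNA. CPM, the scale of all levels below, is a count divided by the library's gene total after TMM scaling, times 1000000.

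Most of the interferon-stimulated effectors among the 9 genes were almost silent in every group. Ifit1, Ifit3, Isg15, Irf7 and Rsad2 had 55, 21, 40, 92 and 5 counts over all 20 libraries together, and these 5 did not pass the filter on low counts, so only 4 of the 9 genes were tested. Ifit2, Ddx58, Ifih1 and Eif2ak2 passed it. Per kilobase of exon, which allows genes to be compared, the wild-type level was 10.6 ± 1.45 CPM per kb for Eif2ak2, 6.80 ± 1.32 for Ddx58, 1.92 ± 0.169 for Ifit2 and 0.704 ± 0.175 for Ifih1 (SD, n = 4 each). The other 5 lay at or below 0.172 CPM per kb in wild type. The RNA sensors were thus present at a basal level while all effectors among the 9 genes except Ifit2 were near zero.

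Ifit2 (ENSMUSG00000045932.12, chromosome 19, 34550694 to 34576419, plus strand, GRCm38) encodes a tetratricopeptide-repeat protein that binds viral RNA. Its level was 7.93, 7.81, 7.92 and 6.57 CPM in the 4 wild-type libraries and 10.2, 14.1, 11.7 and 9.12 CPM in Btbd7 KO. In Zcchc8 KO it was 1.43, 1.08, 0 and 0.764 CPM in clone 1, 2.88, 2.78, 3.08 and 1.66 CPM in clone 2, and 3.06, 5.02, 4.33 and 4.36 CPM in clone 3. All 12 Zcchc8 KO libraries therefore lay below all 8 control libraries. Among all genes tested, 4.12% had all 12 below the 4 wild-type libraries and 2.39% had all 12 below the 8 controls.

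**Figure D1:**
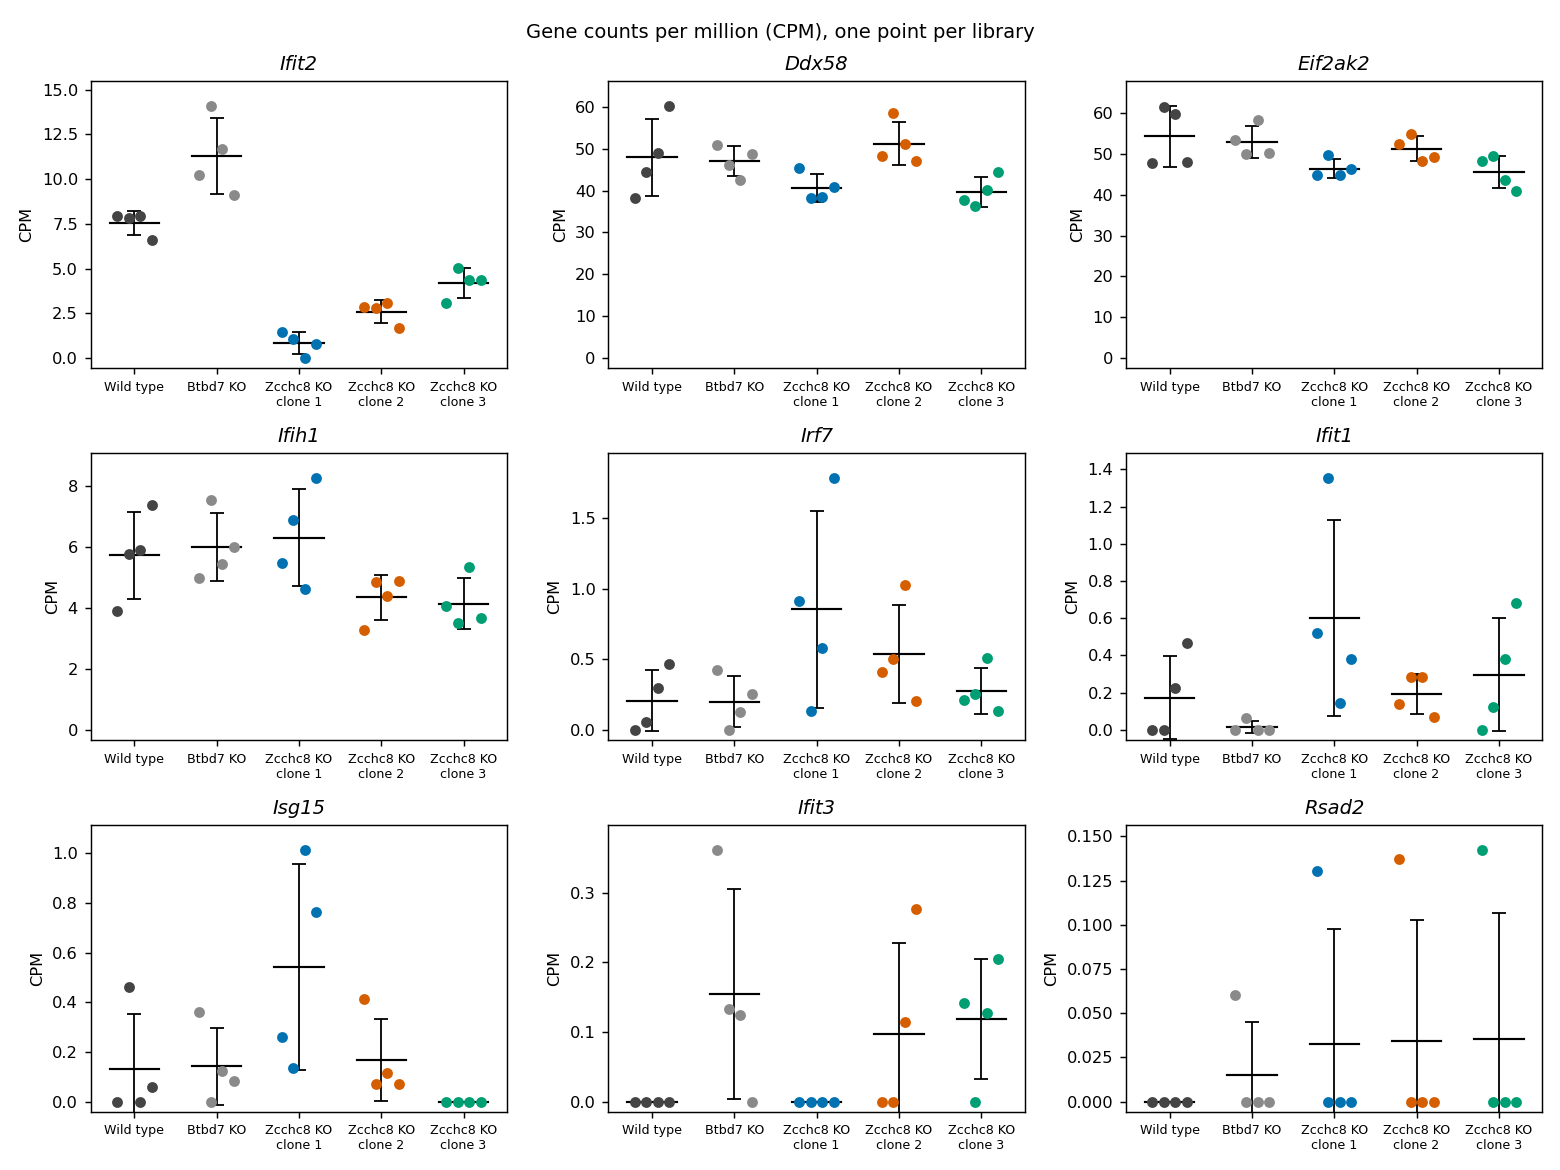
CPM of the 9 genes in each library (y axis, linear, with its own range per gene), grouped by line on the x axis, with replicates 1 to 4 from left to right, a bar at the mean and whiskers of 1 SD that are clipped at the lower axis limit. Ifit2 is below the control range in all 12 Zcchc8 KO libraries, Ddx58, Eif2ak2 and Ifih1 overlap between wild type and each Zcchc8 KO clone, and the other 5 genes stay under 2 CPM.

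For the mean of the clones, Ifit2 stood at a log2 fold change of -1.86 against wild type (SE 0.23), a level 3.62-fold lower. It was -3.16 (SE 0.37) in clone 1, -1.54 (SE 0.29) in clone 2 and -0.86 (SE 0.28) in clone 3. Against Btbd7 KO the mean of the clones was -2.43 (SE 0.23). The clone 1 libraries held only 0 to 11 Ifit2 counts each, and with every library thinned to the same total the change in clone 1 was -2.95. Clone 3 was no longer called at that equal depth (-0.68) or without clone 3 replicate 1 (-0.72). Without wild-type replicate 1 the mean change was -1.81.

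The size of the Ifit2 difference depended on the clone. A joint test that the 3 clones are equal, which does not use wild type, gave an adjusted p of 0.000165 (edgeR quasi-likelihood test, Benjamini-Hochberg adjustment over all 15297 genes tested, as in all tests below), where 28.5% of all genes were called. Clone 1 was below clone 2 by a log2 difference of -1.62 (SE 0.40, edgeR adjusted p = 0.00345, 21.5% of all genes called) and below clone 3 by -2.30 (SE 0.38, edgeR adjusted p = 0.000119, 14.2% of all genes called). The difference between clones 2 and 3 did not pass the adjusted threshold, although its unadjusted interval excludes 0 (-0.68, 95% interval -1.28 to -0.08, edgeR adjusted p = 0.142, 17.8% of all genes called). The ranges of clones 1 and 2 do not overlap, whereas those of clones 2 and 3 touch near 3.1 CPM.

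In Btbd7 KO, the negative control, Ifit2 stood above wild type without passing the test. The log2 fold change was 0.58 (95% interval 0.05 to 1.1, edgeR adjusted p = 0.153), although the lowest Btbd7 KO library (9.12 CPM) exceeded the highest wild-type one (7.93 CPM), as it did for 9.37% of all genes tested. From high to low the order was Btbd7 KO (11.3 ± 2.13 CPM), wild type (7.56 ± 0.663), clone 3 (4.19 ± 0.820), clone 2 (2.60 ± 0.640) and clone 1 (0.820 ± 0.611; SD, n = 4 each).

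The cytosolic RNA sensors showed small differences. Ddx58 (ENSMUSG00000040296.15, chromosome 4, 40203773 to 40239828, minus strand) encodes RIG-I. It was at 38.2, 44.4, 49.0 and 60.2 CPM in wild type and at 50.8, 46.1, 42.4 and 48.7 CPM in Btbd7 KO. Clone 1 held 45.3, 38.2, 38.5 and 40.8 CPM, clone 2 held 48.2, 58.6, 51.2 and 47.0 CPM, and clone 3 held 37.9, 36.4, 40.2 and 44.6 CPM. Every clone overlapped the wild-type range, which wild-type replicate 1 extended downwards. The log2 fold change of the mean of the clones was -0.14 (SE 0.09) and was not called. Without wild-type replicate 1 it was -0.21 and passed the threshold.

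Ddx58 did differ between the clones (joint test, edgeR adjusted p = 0.0197). Clone 2 was above clone 3 by a log2 difference of 0.37 (SE 0.11, edgeR adjusted p = 0.0214) and above clone 1, with clone 1 minus clone 2 at -0.33 (SE 0.11, edgeR adjusted p = 0.035). Leaving out clone 2 replicate 2, the highest of its group, raised the joint adjusted p to 0.124, and leaving out clone 2 replicate 3 raised it to 0.052. The call of clone 1 against clone 2 was lost in 5 of the 20 fits that left out 1 library, namely clone 1 replicates 2, 3 and 4 and clone 2 replicates 2 and 3 (edgeR adjusted p up to 0.151). That of clone 2 against clone 3 was lost in 3 of 20, clone 2 replicate 2 and clone 3 replicates 1 and 2 (edgeR adjusted p up to 0.0994). In Btbd7 KO the difference from wild type was -0.03 (95% interval -0.24 to 0.19, edgeR adjusted p = 0.911).

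Ifih1 (ENSMUSG00000026896.14, chromosome 2, 62595798 to 62646255, minus strand) encodes MDA5, which binds long double-stranded RNA. Its wild-type libraries were at 3.90, 5.79, 5.91 and 7.39 CPM and those of Btbd7 KO at 5.0, 7.57, 5.46 and 6.0 CPM. Clone 1 was at 5.47, 6.91, 4.63 and 8.28 CPM, clone 2 at 3.29, 4.84, 4.39 and 4.90 CPM, and clone 3 at 4.06, 3.52, 5.35 and 3.68 CPM. Each Zcchc8 KO clone overlapped the wild-type range, while clone 2 lay just below Btbd7 KO. The mean of the clones gave -0.24 (SE 0.19) against wild type, the joint test of the clones an edgeR adjusted p of 0.105, and Btbd7 KO a log2 fold change of 0.07 (95% interval -0.38 to 0.52, edgeR adjusted p = 0.890). Without wild-type replicate 1 the joint adjusted p was 0.0436.

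Eif2ak2 (ENSMUSG00000024079.4, chromosome 17, 78852564 to 78882573, minus strand) encodes PKR. It was at 47.7, 61.5, 60.0 and 48.1 CPM in wild type and 53.4, 50, 58.3 and 50.2 CPM in Btbd7 KO. The clones held 44.8, 49.7, 44.9 and 46.4 CPM (clone 1), 52.5, 55, 48.4 and 49.4 CPM (clone 2) and 48.4, 49.5, 43.6 and 41.0 CPM (clone 3). The log2 fold change of the mean was -0.19 (SE 0.07), a level 1.14-fold lower that was only just called, and each clone overlapped the wild-type range. Of the 20 fits that left out 1 library, the call was kept only without wild-type replicate 1 (-0.23), wild-type replicate 4, clone 2 replicate 2 or clone 3 replicate 2. The clones did not differ by the joint test (edgeR adjusted p = 0.311), and Btbd7 KO gave -0.04 (95% interval -0.21 to 0.14, edgeR adjusted p = 0.826).

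Counting calls, 2 of the 4 tested members (Ifit2 and Eif2ak2) were lower for the mean of the clones, where 36.1% of all genes were called and 19.9% were called lower. Ifit2 was the only call in clone 1 and in clone 2 (background 35.8% and 32.3%), and Ifit2 and Eif2ak2 were called in clone 3 (29.3%). In Btbd7 KO 0 of 4 were called in edgeR, as in DESeq2, with a background of 15.7%, and Ifit2 alone had an unadjusted p under 0.05. The joint test of the clones called 2 of 4, Ifit2 and Ddx58 (28.5%). No member was called higher in any of these comparisons with wild type. Nothing is read from the counts against wild type, since Ifit2 was known from that contrast.

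**Figure D2:**
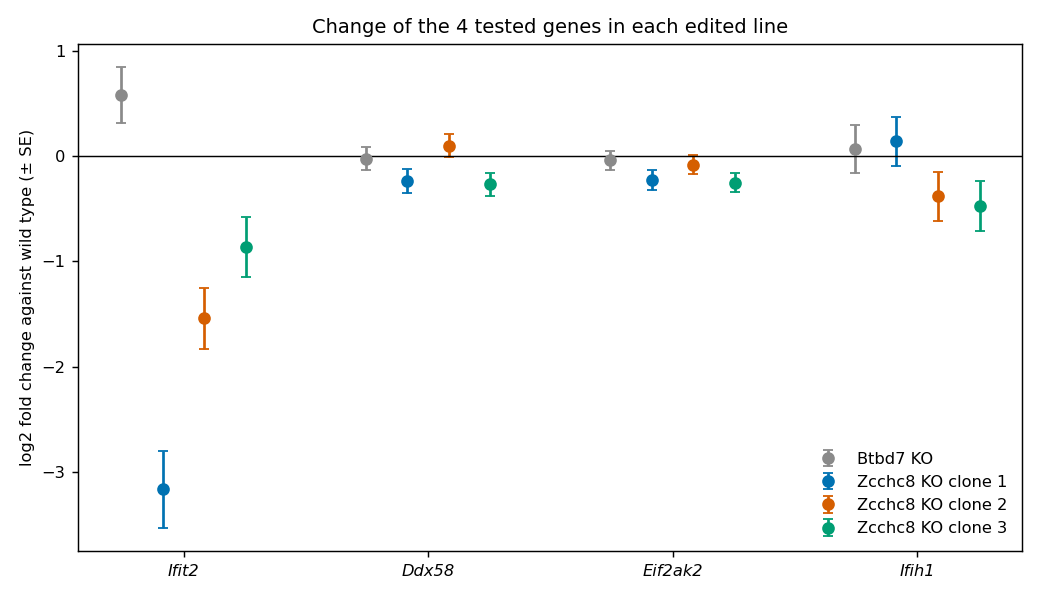
Log2 fold change against wild type (y axis) of the 4 tested genes (x axis) in Btbd7 KO and in each Zcchc8 KO clone, as points with bars of 1 SE from the edgeR fit. Ifit2 runs from -3.16 in clone 1 to -0.86 in clone 3 and 0.58 in Btbd7 KO, while the 3 sensors stay between -0.48 and 0.14.

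The 5 silent genes are given as counts, since a few reads carry no fold change. Ifit1 (chromosome 19, 34640871 to 34650009), whose protein binds RNA lacking host cap marks, had 0, 0, 3 and 8 counts in wild type, 0, 1, 0 and 0 in Btbd7 KO, 4, 10, 1 and 3 in clone 1, 1, 4, 5 and 1 in clone 2 and 0, 1, 3 and 10 in clone 3. Ifit3 (chromosome 19, 34583531 to 34588731), a partner of Ifit1, was at 0 in all libraries of wild type and of clone 1 and reached at most 6 counts elsewhere. Rsad2 (chromosome 12, 26442746 to 26456452), which encodes the antiviral enzyme viperin, had 5 counts in all. Ifit1 and Ifit3 belong to a family with close copies such as Ifit1bl1 and Ifit3b, so the few reads of each are uncertain. In wild type, 0 counts of Ifit3 or Rsad2 over 4 libraries allow up to 0.0476 CPM, which covers counting error only.

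Isg15 (chromosome 4, 156199424 to 156200818), which encodes a ubiquitin-like modifier, had 0, 8, 0 and 1 counts in wild type, 6, 0, 1 and 1 in Btbd7 KO, 2, 1, 7 and 6 in clone 1, 3, 1, 2 and 1 in clone 2 and 0 in all of clone 3. Irf7 (chromosome 7, 141262706 to 141266481) had 0, 1, 4 and 8 counts in wild type, 7, 0, 1 and 3 in Btbd7 KO, 7, 1, 4 and 14 in clone 1, 3, 7, 18 and 3 in clone 2 and 3, 2, 4 and 2 in clone 3. The 3′ end of Irf7 overlaps an exon of Phrf1 on the other strand, and the strand setting of the counting is not given in the sources used here, so some of these reads cannot be assigned. Summed over the 5 genes, the level was 0.510 ± 0.407 CPM in wild type, 0.529 ± 0.457 in Btbd7 KO, and 2.03 ± 0.606, 1.03 ± 0.392 and 0.729 ± 0.341 in clones 1, 2 and 3 (SD over 4 libraries each). The clone 1 libraries (1.62 to 2.93 CPM) lay above the highest wild-type (0.997) and Btbd7 KO (1.21) libraries, although that sum rests on 61 counts.

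RNA build-up itself was visible in these libraries. PROMPT regions are stretches upstream of a promoter, named by the gene, and their counts cover 19 libraries, without wild-type replicate 1. Over 11365 genes tested in both tables, the median log2 ratio of PROMPT to gene counts was -3.36 ± 0.02 in wild type (SD, n = 3) and -3.36 ± 0.05 in Btbd7 KO, against -2.17 ± 0.03, -2.37 ± 0.01 and -2.30 ± 0.04 in clones 1, 2 and 3 (SD, n = 4 each). Of the PROMPT regions tested, 43.1% were called for the mean of the clones and 39.2% were called higher, with a median log2 fold change of 0.43 over all of them. Regions could pass the filter on low counts through the Zcchc8 KO libraries alone. The ratios and shares given here therefore lean towards regions that are high in Zcchc8 KO. Without the filter, 6872 regions were called higher and 768 lower. Scaled within the PROMPT table, that median was 0.02, but this scaling centres most regions on no change by construction, so it cannot show a broad rise.

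Among the 9 genes, the PROMPT region of Eif2ak2 rose in every clone. Its counts scaled to CPM were 1.39, 2.77 and 2.87 in the 3 wild-type libraries and 1.39, 1.99, 1.86 and 1.69 in Btbd7 KO. They were 6.38, 4.6, 6.51 and 4.33 in clone 1, 5.89, 4.70, 5.53 and 6.29 in clone 2, and 4.77, 3.26, 6.63 and 4.63 in clone 3. All 12 Zcchc8 KO libraries exceeded all 7 controls, as they did for 21.1% of the PROMPT regions tested. For the mean of the clones the region rose by 1.18 on the log2 scale (SE 0.25, edgeR adjusted p = 6.25e-05). In clones 1, 2 and 3 it rose by 1.22, 1.26 and 1.04 (edgeR adjusted p = 0.000334, 0.00016 and 0.00198), where 42.9%, 38.6% and 39% of all PROMPT regions were called. Scaled within the table, the mean was 0.80 (edgeR adjusted p = 0.00467). In Btbd7 KO it was -0.44 (95% interval -1.03 to 0.16, edgeR adjusted p = 0.511), where 2.97% of the regions were called. The Eif2ak2 gene itself was not higher in any clone. The lincRNA Gm26637, annotated on the other strand, overlaps an exon at the 5′ end of Eif2ak2 and reaches upstream of it. Whether reads of the PROMPT region or of the Eif2ak2 gene belong to Gm26637 was not tested.

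**Figure D3:**
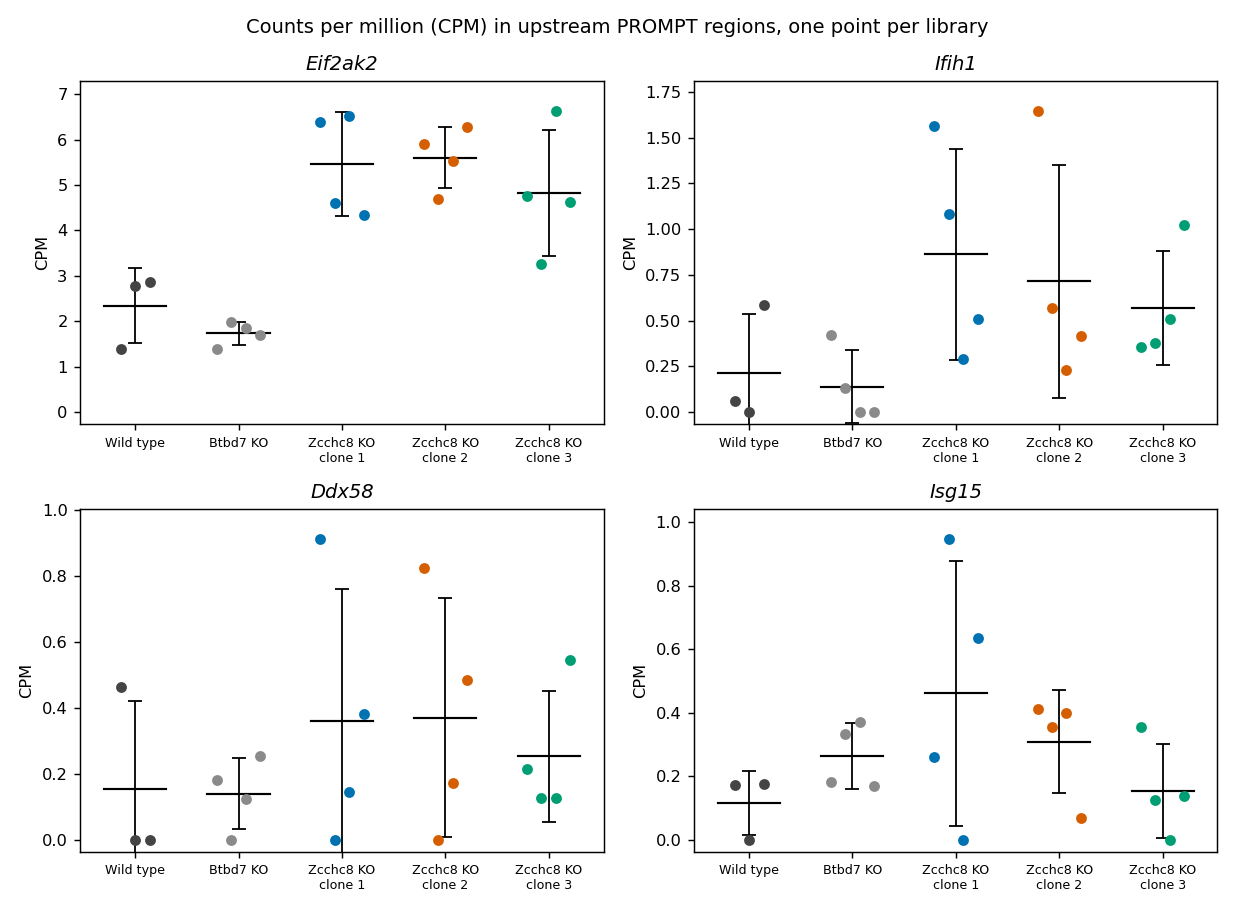
CPM in the PROMPT regions of Eif2ak2, Ifih1, Ddx58 and Isg15 (y axis, linear, with its own range per gene) in each of 19 libraries, grouped by line, with a bar at the mean and whiskers of 1 SD that are clipped at the lower axis limit. The Eif2ak2 region lies between 3.26 and 6.63 CPM in Zcchc8 KO and between 1.39 and 2.87 CPM in the controls, while the other 3 overlap between groups.

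For Ifih1 the PROMPT region was at 0.0579, 0 and 0.586 CPM in wild type, and at 0.290 to 1.56, 0.228 to 1.64 and 0.356 to 1.02 CPM in clones 1, 2 and 3. Its log2 fold change of 1.59 (SE 0.80) did not pass the test (edgeR adjusted p = 0.108). Without wild-type replicate 4, which held most of the wild-type counts, it was 4.03 and passed (edgeR adjusted p = 0.007), so the comparison with wild type rests on that library. In Btbd7 KO the region was at 0 to 0.422 CPM with 9 counts in all. Against Btbd7 KO the mean of the clones was 2.03 (SE 0.78, edgeR adjusted p = 0.0244), where 51.1% of the regions were called, and the clones overlapped both control groups. No control library exceeded 0.586 CPM, so this region could pass the filter on low counts through the Zcchc8 KO libraries alone. Such a choice favours a rise over either control, so the passing p-values of the Ifih1 region are no support for one. The regions of the other 7 genes had 3 (Ifit1) to 57 (Isg15) counts in all and were not tested. For Ifit2 the region had 13 counts over 5 libraries, 0 of them in wild type or clone 1.

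The rest of the pathway was read from 6 lists of 168 genes, 109 of which passed the filter. For the mean of the Zcchc8 KO clones, 10 rose, 19 fell and 80 did not pass the test, with a median log2 fold change of -0.03 beside -0.01 over all genes. The called share was 26.6%, against 36.1% of all genes. In Btbd7 KO 13 rose and 7 fell (18.3%, against 15.7% of all genes). The wild-type libraries are shared by both comparisons. Single clones gave 14 higher and 22 lower in clone 1, 17 and 14 in clone 2, and 7 and 21 in clone 3. The called shares were 33.0%, 28.4% and 25.7% in clones 1, 2 and 3, against 35.8%, 32.3% and 29.3% of all genes.

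The interferons themselves were absent or nearly so. Of 14 ligand genes none was tested, 10 (among them Ifnb1 and Ifna4) had no count in any library, Ifnk, Ifnz and Ifng had 1 count each and Ifne, an epithelial interferon, had 58. Their sum was 0.0187 ± 0.0374 CPM in wild type and 0.217 ± 0.205 in Btbd7 KO. It was 0.444 ± 0.450, 0.218 ± 0.276 and 0.437 ± 0.285 in clones 1, 2 and 3 (SD over 4 libraries each). Clones 1 and 3 lay above wild type (at most 0.0748 CPM) but overlapped Btbd7 KO (up to 0.482), and these sums rest on few counts. Among other effectors, 21 of 56 failed the filter. They included Mx1 (9 counts in 20 libraries), Mx2 (33), Oas1a (42), Oas2 (8), Oas3 (17), Oasl1 (2), Oasl2 (116), Ifi44 (7) and Cmpk2 (47), all standard markers of an interferon response. Other effectors were well expressed. The 56 genes summed to 1371 ± 27.2 CPM in wild type (SD, n = 4), where 24 of them had a mean of at least 50 counts. Of the inflammatory chemokines and NF-kB targets, Cxcl9 and Tnf had 0 counts, Il6 had 3, Ccl5 had 21 and Cxcl10, an interferon-inducible chemokine, had 66 over the 20 libraries. The neutrophil-attracting chemokines Cxcl5 (11434 counts), Cxcl1 (7711) and Cxcl2 (1119) were well expressed, and the list summed to 508 ± 34.2 CPM in wild type (SD, n = 4).

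All 19 genes of the interferon receptors and JAK-STAT signalling were expressed enough to test, so the RNA of the receiving machinery was present. Its proteins and the response of the cells to interferon were not measured. Genes named from a pathway list here and below were mostly picked for the largest called changes between Zcchc8 KO and wild type. Their passing p-values in that comparison follow from the choice and are given as a description. Ifnar2, a subunit of the type I receptor, fell by 0.62 on the log2 scale (SE 0.14, edgeR adjusted p = 0.00144; 13.4 ± 3.21 CPM in wild type and 8.05 to 9.94 in the clone means). Without wild-type replicate 1 the fall was -0.42 (edgeR adjusted p = 0.0149), and with Btbd7 KO as the control it was -0.18 and not called. Ptpn2, a phosphatase that dampens JAK-STAT signalling, fell by 0.37 (edgeR adjusted p = 1.16e-05), most in clone 2 (-0.64). Stat2 rose by 0.38 (edgeR adjusted p = 0.0101) and Tyk2, a receptor-bound kinase, by 0.36 (edgeR adjusted p = 0.00645), and against Btbd7 KO the change of Stat2 was 0.23 and not called. The other 15 did not pass the test (21.1% called), and none of the 19 was called in Btbd7 KO.

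Of the 26 tested genes for nucleic acid sensing and its adaptors, 9 fell and 2 rose in Zcchc8 KO, a called share of 42.3% beside the 36.1% of all genes. Tlr3, the endosomal receptor for double-stranded RNA, fell most among the well-counted ones. It was at 358 ± 50.5 CPM in wild type and 338 in Btbd7 KO, against 213, 165 and 275 in clones 1, 2 and 3, which is a fall by 0.75 on the log2 scale (SE 0.06, edgeR adjusted p = 2.1e-09). Traf3, an adaptor of this signalling, fell by 0.33 (edgeR adjusted p = 0.000102). Rnaseh2b fell by 0.31 (edgeR adjusted p = 0.0399), a call that was lost in 12 of the 20 fits that left out 1 library, and was -0.09 without wild-type replicate 1. Rnaseh2c, like it a subunit of the enzyme that cuts RNA paired with DNA, rose by 0.42 (edgeR adjusted p = 0.000519). Traf3, Rnaseh2b and Rnaseh2c were called in the same direction in Btbd7 KO, and against Btbd7 KO they stood at -0.05, 0.23 and -0.03. Trim25, which modifies RIG-I and was named after its values were seen, rose by 0.19 and was also called higher in Btbd7 KO.

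Among the other effectors 35 were tested, of which 4 rose and 5 fell (25.7% called). Slfn2, a Schlafen gene, rose by 0.75 (SE 0.15, edgeR adjusted p = 0.000397), and Helz2, a helicase cofactor, by 0.44 (edgeR adjusted p = 1.15e-05). Ifi204, a DNA-sensing gene of a family of close copies, fell by 0.68 (edgeR adjusted p = 1.44e-05). Samd9l fell by 0.63 (edgeR adjusted p = 8.6e-07), but unevenly, at -1.60 in clone 1, -0.49 in clone 2 and 0.19 in clone 3. The remaining calls, named after their values were seen, were Slfn9 and Oas1c among those that rose and Parp12, Tor3a and Pml among those that fell. In Btbd7 KO 6 of these genes rose, namely Rnf213, Ifi35, Ifitm3, Plscr1, Lgals3bp and Xaf1, and 2 fell, Ifitm2 and Slfn9, also named after their values were seen.

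For the interferon-gamma GTPases and antigen presentation, 17 of 31 were tested, 2 rose and 1 fell (17.6% called). H2-D1, a class I heavy chain, rose by 0.28 (edgeR adjusted p = 0.0406), Tapbp, which loads peptides onto class I, rose by 0.24 (edgeR adjusted p = 0.00907), and B2m, the class I light chain, fell by 0.23 (edgeR adjusted p = 0.0157). Without wild-type replicate 1, H2-D1 was 0.14 and B2m -0.09, and neither was called. The H2-D1 call was also lost without clone 1 replicate 1, 2 or 3, and that of B2m without wild-type replicate 4. Of 12 tested chemokines and NF-kB targets 2 were called (16.7%). Nfkb1 fell by 0.42 (edgeR adjusted p = 2.17e-07) and Tnfaip3, an inhibitor of NF-kB, fell by 0.25 (edgeR adjusted p = 0.0122). Nfkb1 also fell in Btbd7 KO (-0.25), and Tnfaip3 was -0.10 and not called without wild-type replicate 1.

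**Figure D4:**
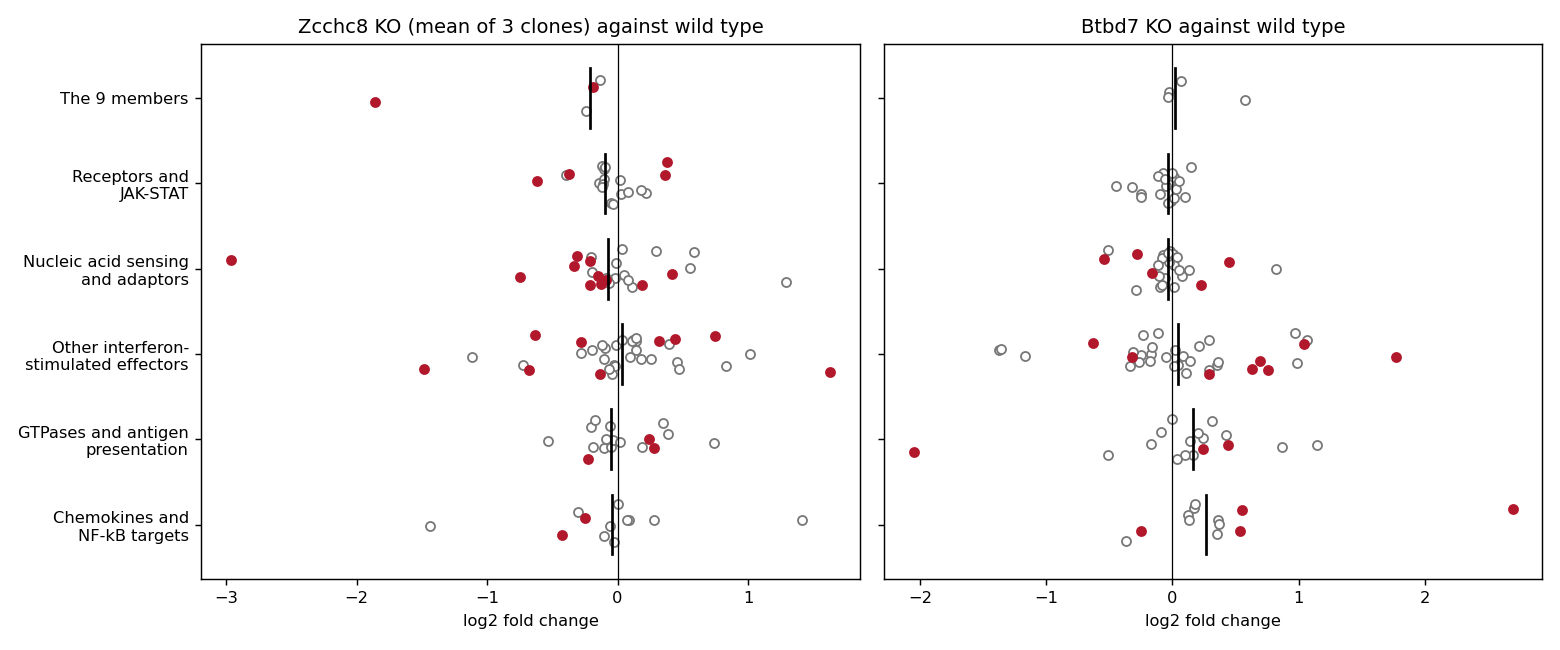
Log2 fold change (x axis) of each tested gene in the 9-gene group and in 5 lists (y axis), for the mean of the 3 Zcchc8 KO clones (left) and Btbd7 KO (right) against wild type. Filled red points had an edgeR adjusted p under 0.05, open points did not, and the upright bars mark list medians, which lie between -0.21 (the 9-gene group) and 0.03 in the left panel and between -0.04 and 0.26 (chemokines and NF-kB targets) in the right one. The interferon ligands are not drawn because none was tested.

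The identity of the cells was read from markers beside these results. Of 8 epithelial markers 7 were tested (Krt5 was not). The summed level of the 8 was 3128 to 4961 CPM in wild type, 4168 to 4298 in Btbd7 KO and 2867 to 3833 in Zcchc8 KO. For the mean of the clones, Krt7, Krt8, Krt14 and Krt18 were called lower and the other 3 tested were not called. That share was 57.1%, against 36.1% of all genes. Krt19 was at 229 CPM in wild type, 286 in Btbd7 KO and 180, 346 and 154 in clones 1, 2 and 3. The acinar marker Aqp5 was present at 178 CPM in wild type and fell in Zcchc8 KO (-0.42, edgeR adjusted p = 7.24e-07) and in Btbd7 KO (-0.68, edgeR adjusted p = 6.86e-08), while Smgc and Pip were at 0 in all libraries. Of 7 fibroblast markers 3 were tested, their sum was 11.4 to 18.5 CPM in wild type, 22.5 to 35.2 in Btbd7 KO and 10.2 to 28.2 in Zcchc8 KO, and Lum was at 0. Col3a1, a fibrillar collagen, followed Ifit2 in direction, at 3.15 CPM in wild type, 7.31 in Btbd7 KO and 0.165, 0.0688 and 0.894 in clones 1, 2 and 3 (-3.85 for the mean of the clones, edgeR adjusted p = 3.33e-08). Col1a1 rose by 0.67 (edgeR adjusted p = 0.000277), and all 3 tested fibroblast markers rose in Btbd7 KO. Col3a1, Col1a1, Aqp5, Krt7, Krt8, Krt14, Krt18 and Krt19 were named after their values were seen. Of 8 immune markers only Cd68, a lysosomal protein, was tested. Cd68 rose for the mean of the clones (0.58, edgeR adjusted p = 0.00386), at 5.55 CPM in wild type, 5.89 in Btbd7 KO and 11.2, 9.31 and 5.54 in clones 1, 2 and 3. The sum of the 8 was 4.52 to 6.19 CPM in wild type, 5.44 to 6.59 in Btbd7 KO, 8.07 to 13.4 in clone 1, 9.26 to 11.1 in clone 2 and 4.09 to 6.76 in clone 3, and Adgre1 and Tyrobp were at 0. In bulk RNA, fewer expressing cells and less RNA per cell cannot be told apart, and the part of these markers in the Ifit2 difference was not tested.

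Across the 20 libraries, the genes whose log2(CPM + 0.5) pattern was most like that of Ifit2 were Ifi202b, an interferon-inducible gene of a family of close copies, and Srprb, a subunit of the signal recognition particle receptor (Pearson r = 0.92 each). Ifi202b was at 132 ± 6.24 CPM in wild type, 146 ± 4.70 in Btbd7 KO and 67.0 ± 4.53, 101 ± 6.10 and 101 ± 5.94 in clones 1, 2 and 3 (SD, n = 4 each), in the same order of groups from clone 1 to Btbd7 KO except that clones 2 and 3 were level. Ddx58 was most like Insig2 and Phf8 (r = 0.79 each), Ifih1 like Herc3 and Ola1 (r = 0.75 and 0.74), and Eif2ak2 like Abcc1 and Anxa2 (r = 0.78 and 0.77). The 4 members were little like each other, at r from 0.04 (Ifit2 and Ifih1) to 0.46 (Ifit2 and Eif2ak2). These correlations describe 20 libraries of 5 lines that share their depth and line differences. The nearest genes depended on the measure, and by rank (Spearman) 0 of these 8 genes were kept, with Plk2 and Canx nearest to Ifit2.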

How the data were processed

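Per the labels' protocols, total RNA went through a stranded Illumina kit. The files deposited by the authors hold unnormalized read counts per gene and per PROMPT region, and FastQC and STAR 2.7.3a are named in the submitters' processing notes. The counter, genome build, strand setting and the reach of a PROMPT region are not given in the sources used here. The gene table of all 20 libraries was used, and that of 19 libraries, identical in its shared columns, served as an alternative. The tables of 6 other regulatory classes were not used here, since their features carry identifiers without coordinates. Of 55471 identifiers, 54573 matched GENCODE M21 with their version.

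The test was edgeR 4.0.16, run in R 4.3.3 (TMM on all genes, filterByExpr by group, glmQLFit and glmQLFTest) in 1 fit over 5 groups. The contrasts were the mean of 3 Zcchc8 KO clones, each clone and Btbd7 KO against wild type, and the clones against each other. A feature was called where its p, adjusted by Benjamini and Hochberg over all features tested, was under 0.05. PROMPT counts used the library sizes and TMM factors of the gene table. SEs came from the quasi-likelihood F, and 95% intervals are 1.96 SE to each side. CPM are counts over TMM-scaled gene totals, and a floor of 3 counts was used for zeros. Promoter windows came from RefSeq GRCm38.p6.

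The members and lists were chosen with earlier results of these data known. Named were all 9 members, the edited genes, from each list the 4 called genes with the largest absolute log2 fold change and a mean of at least 50 counts, and for each tested member the 2 genes most correlated with it. In counts simulated for the mean of the clones over 15296 genes, 91.5% of genes changed by 1 on the log2 scale and 100% of those changed by 2 were recovered, and 5.73% of calls were false. The simulation gave every gene the same spread and held no outlying library and no differences between clones. Its rates check the code and do not carry over to these data. No pair of replicates within a group matched to within counting noise (chi-square over its degrees of freedom, 2.89 to 78.6). Depth was 6833258 to 17771804 counts per library. Reads carried no molecular identifiers. Alternatives were DESeq2 1.42.0, no TMM, TMM after the filter (added after seeing the data), other filters, only the groups compared, a replicate block, the other gene table, cell lines as replicates, counts thinned to 6833258 per library, Btbd7 KO as control, an absolute log2 fold change over 1, scaling within the PROMPT table, and leaving out each library. For cell lines as replicates, the counts of each line were summed, and the Zcchc8 KO clones were set against wild type and Btbd7 KO together.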

Additional observations from a re-analysis of the deposited data

Results flagged for a closer look

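Wild-type replicate 4 stood below the other wild-type libraries at Ifit2, at 6.57 CPM against 7.81 to 7.93, a gap past the 95% critical value of Dixon's test. Of 28 groups of 4 libraries looked at, this was the one that passed, and chance passes about 1 in 20.

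Differences between the 3 Zcchc8 KO clones passed the joint edgeR test at 2 members, Ifit2 (adjusted p = 0.000165) and Ddx58 (adjusted p = 0.0197). Of the 17 named pathway genes, which were chosen for their large changes against wild type, 10 differed between the clones by the same edgeR test, beside 41 of all 109 tested pathway genes (37.6%) and 28.5% of all genes. Samd9l (adjusted p = 1.7e-11), Ifi204 (adjusted p = 0.000952) and Helz2 (adjusted p = 9.94e-06) had their largest change in clone 1. Tlr3 (adjusted p = 6.97e-07), Ptpn2 (adjusted p = 4.79e-05), Slfn2 (adjusted p = 0.000396), Nfkb1 (adjusted p = 0.0282), Tnfaip3 (adjusted p = 0.00207) and H2-D1 (adjusted p = 0.00826) had theirs in clone 2. B2m (adjusted p = 0.00111) was at -0.36 in clones 2 and 3 and 0.04 in clone 1.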

How the results depend on the processing

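The Ifit2 difference kept its direction and its call for the mean of the clones in 10 of 11 alternatives and in all 20 fits that left out 1 library. These refits use the same libraries through which Ifit2 was known, so they show dependence on processing only and add no independent support. The Ifit2 difference was not called with cell lines as replicates (-1.93), where wild type and Btbd7 KO together were the control. It was -2.43 with Btbd7 KO alone as control. The number of members called for the mean of the clones was 2. It was 1 with DESeq2, no TMM, TMM after the filter, no filter, only the groups compared, equal depth and Btbd7 KO as control, and 0 with cell lines as replicates, where the member lost besides Ifit2 was Eif2ak2. Leaving out 1 library gave 1 to 3. For clone 1 (1 member) the other gene table, which lacks wild-type replicate 1, gave 3, and leaving out 1 library gave 1 to 3. For clone 3 (2 members) the count was 1 with DESeq2, no TMM, no filter and only the groups compared, 4 with the other gene table and 0 at equal depth, and leaving out 1 library gave 1 to 4. The difference between the clones (2 members) gave 1 to 3 and the PROMPT regions (1) gave 1 to 2 when 1 library was left out.

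Of the pathway genes 10 rose and 19 fell. With cell lines as replicates this was 0 and 1, and past an absolute log2 fold change of 1 it was 1 and 2. The number that fell was 10 without TMM and 29 with Btbd7 KO as control. In Btbd7 KO 13 rose and 7 fell, against 5 and 3 with only the groups compared. Over all genes, 2474 were higher and 3046 lower, and without TMM 3229 and 2005, which moves the higher share of calls from 44.8% to 61.7%. With cell lines as replicates, 1092 genes were called in place of 5520, though the control there was wild type and Btbd7 KO together. Signs turned at Ifih1 in Btbd7 KO (-0.0706 with the other gene table, -0.0706 to 0.22 with 1 library left out), Rnaseh2c (-0.0330) and Rnaseh2b (0.23) with Btbd7 KO as control, and, with 1 library left out, at Ddx58 (-0.11 to 0.11) and Eif2ak2 (-0.0888 to 0.0273) in Btbd7 KO and Ddx58 between clones 1 and 3 (-0.0190 to 0.0945). Near-zero turns were also seen for Ddx58 in the mean of the clones (0.0144 without wild-type replicate 4), Ifih1 in clone 1 (-0.00542 without clone 1 replicate 4) and Eif2ak2 in clone 2 (0.00315 without TMM). None of these turned values was called. The causes were not tested.

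The replicate numbers share no stated batch, and same-numbered libraries did not deviate together (correlation -0.09 to 0.15 over 40 pairs, 2 of them over 0.1, and 1 library of 20 correlating best with its own number). With the replicate number as a block, 2 members were called for the mean of the clones, Ifit2 stood at -1.86, and 11 pathway genes rose and 19 fell. In PROMPT counts scaled within the table, which centres most regions on no change by construction, 5054 regions were higher and 3665 lower, against 6914 and 679. Depth limits the 5 untested members, which held at most 18 counts in any library.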

Other observations

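The 5 counts of Rsad2 all came from libraries numbered replicate 1, with 1 count each in Btbd7 KO, clone 1 and clone 2 and 2 in clone 3. Isg15 had 16 counts over the 4 libraries of clone 1 and 0 over those of clone 3. Ifit1 had 1 count in Btbd7 KO, 11 in wild type and 18, 11 and 14 in clones 1, 2 and 3. In an edgeR fit without the filter, only these 2 genes among the 5 near zero had an adjusted p under 0.05 in any comparison, Isg15 between clones 1 and 3 and Ifit1 between Zcchc8 KO and Btbd7 KO. Each is set against a group with 0 or 1 counts, so no fold change or test is read from them. The PROMPT region of Isg15 held 57 counts in 19 libraries, more than the 40 counts of the gene itself in 20.

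The ISRE letters were found in 19 of 43 other effector genes with a RefSeq window, in 12 of 23 interferon-gamma GTPase and antigen presentation genes and in 7 of 14 interferon ligands. They were found in 3 of 16 receptor and JAK-STAT genes and in 1 of 23 genes for nucleic acid sensing and its adaptors.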
